A study of Homo sapiens with 6 samples.

Results

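The genes that carry iron into the cell, store it, move it onward and sense it were followed in the transcriptome of K562 cells with less METTL3 or METTL14. The members were 10 of the 61661 identifiers in the count table, chosen by gene symbol with earlier results of these data known, though the rule itself uses no measured value: TFRC, SLC11A2 and STEAP3 for uptake, FTH1, FTL and NCOA4 for storage, SLC25A37 for import into mitochondria, SLC40A1 for export, and IREB2 and ACO1 for sensing. All 10 passed the filter on low counts, and the lowest count of any member in any library was 593 reads. K562, a long-established leukemia line of erythroid character, was derived from the blast crisis of chronic myeloid leukemia. METTL3 and METTL14 are the paired subunits of the complex that writes m6A, a methyl mark on adenosines of mRNA.

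The libraries fell into 3 groups of 2, or 6 in all. The shCTR cells, given as WT by the labels, were K562 cells that carried a lentivirus with a nonsense sequence in the pLent-U6-GFP-puro vector. The shMETTL3 cells carried an shRNA against METTL3 from the same vector, and the shMETTL14 cells are given by the labels as a METTL14 knockdown, whose vector is not given in the sources used here. The shCTR and shMETTL3 lines are described as stable, and all cells were grown in RPMI1640 with serum and taken in the logarithmic stage. The sources do not say whether the libraries of a group came from separate cultures, so the p-values measure only the spread between these libraries, which may be technical.

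Iron bound to transferrin enters an erythroid cell through the transferrin receptor TFRC, is reduced in the endosome by STEAP3 and leaves it through SLC11A2 (DMT1). Most of it then goes to the mitochondria through mitoferrin-1 (SLC25A37) for heme synthesis, the surplus is stored in ferritin, a shell of FTH1 and FTL chains, and SLC40A1 (ferroportin) is the exporter. When iron is scarce, the iron regulatory proteins, encoded by ACO1 (IRP1) and IREB2 (IRP2), bind hairpins called iron-responsive elements (IREs) in the UTRs of these mRNAs. Binding at the 5′ UTR blocks translation of the ferritin chains and ferroportin, while binding at the 3′ UTR protects the TFRC mRNA from decay. Ferritin and ferroportin are therefore set largely at translation, which mRNA counts do not measure.

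The hairpins are shown because they are the feature of these mRNAs that the iron regulatory proteins read. They were searched on the mRNA strand in the UTRs of GENCODE release 29 protein-coding transcripts (GRCh38) as a C, 5 stem bases, the loop CAGTGN and 5 bases that pair back, with G-T pairs allowed and at most 1 mismatched pair. Such a hairpin was present in at least 1 transcript of 1183 of 19702 protein-coding genes (6.00%), and with every pair intact in 168 genes (0.853%). TFRC, FTH1, FTL and SLC40A1 had hairpins with every pair intact, and SLC11A2, IREB2 and ACO1 had 1 with a mismatched pair. For NCOA4 and STEAP3 these letters were not found in the UTRs, and the search for SLC25A37 is not reported here. A match of letters is a description and not a tested site. TFRC held 4, all in exon 19 of 19 and in the 3′ UTR on the minus strand of chromosome 3, given below with 6 flanking bases on each side and the loop in capitals.
TFRC hairpin at chr3:196050979-196051007: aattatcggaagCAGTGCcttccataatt
TFRC hairpin at chr3:196050575-196050603: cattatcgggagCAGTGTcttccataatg
TFRC hairpin at chr3:196050510-196050538: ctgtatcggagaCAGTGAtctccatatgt
TFRC hairpin at chr3:196050463-196050491: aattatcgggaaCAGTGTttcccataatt

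The ferritin chains and ferroportin each carried 1 hairpin in exon 1, within the 5′ UTR. FTH1 lies on the minus strand of chromosome 11, FTL on the plus strand of chromosome 19 and SLC40A1 on the minus strand of chromosome 2. The SLC11A2 hairpin is in the 3′ UTR, in exon 17 of 17, on the minus strand of chromosome 12. ALAS2, the erythroid enzyme of the first step of heme synthesis and not a member, is shown because its mRNA has the same kind of element and rose most among the other iron genes tested; its hairpin crosses the junction of exons 1 and 2 in the 5′ UTR, on the minus strand of the X chromosome.
FTH1 hairpin at chr11:61967574-61967602: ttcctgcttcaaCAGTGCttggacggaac
FTL hairpin at chr19:48965335-48965363: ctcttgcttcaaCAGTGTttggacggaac
SLC40A1 hairpin at chr2:189580661-189580689: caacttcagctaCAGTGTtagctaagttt
SLC11A2 hairpin at chr12:50988269-50988297: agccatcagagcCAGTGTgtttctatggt
ALAS2 hairpin across the exon junction: ttcgttcgtcctCAGTGCagggcaacagg

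The letters GGACT, a form of the sequence in which m6A is commonly written, were counted on the mRNA strand of the longest transcript of each gene. Every member held at least 1, as did 88.8% of all longest protein-coding transcripts, whose median was 0.927 per kb. Among the members the density ran from 0.402 per kb in ACO1 to 1.63 per kb in FTH1. TFRC had 6 in 5111 bases and FTL had 1 in 878 bases. No methylation was measured in these libraries, so these are counts of letters only.

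The libraries held between 19292574 and 20115304 counts. Levels are given as CPM, the reads of a gene scaled to a common library size with edgeR's TMM factors, so that every change is relative to the bulk of the genes. METTL3 was at 90.5 and 90.3 CPM in the shCTR libraries and at 52.5 and 46.7 CPM in the shMETTL3 libraries, a log2 fold change of −0.87 (SE 0.0783, adjusted p = 3.44e-07). METTL14 was at 33.2 and 34.2 CPM in shCTR and at 19.1 and 20.6 CPM in shMETTL14, a log2 fold change of −0.76 (SE 0.0886, adjusted p = 1.40e-05). Adjusted p-values throughout come from the quasi-likelihood test in edgeR, with the Benjamini-Hochberg correction over all 17686 genes tested, and a gene was called at an adjusted p under 0.05. Both knockdowns were compared with the same shCTR libraries, so those comparisons are not independent of each other.

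Per kilobase of the longest transcript, FTL was the most abundant member in shCTR cells, at 1521 ± 82.3 CPM per kb (SD, n = 2), which was rank 22 among 16662 genes with a length. FTH1 followed at 257 ± 4.60 CPM per kb and TFRC at 165 ± 14.2, and then NCOA4 at 51.3 ± 1.37. SLC11A2 (21.9 ± 1.53) stood between SLC25A37 (23.8 ± 0.733) and SLC40A1 (21.2 ± 0.560) and differed from each by less than the sum of their SDs, while all other neighbours in the order differed by more. IREB2 was at 14.6 ± 1.37 CPM per kb, ACO1 at 9.90 ± 1.24 and STEAP3 at 7.26 ± 0.316, against a median of 5.65 over all these genes. In both knockdowns FTL, FTH1, TFRC and NCOA4 kept the first 4 places in that order, while STEAP3 moved from rank 7431 in shCTR to 6278 in shMETTL3 and 5995 in shMETTL14. SLC40A1 moved from rank 3398 in shCTR to 4101 in shMETTL3 and stood at 3272 in shMETTL14.

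**Figure D1:**
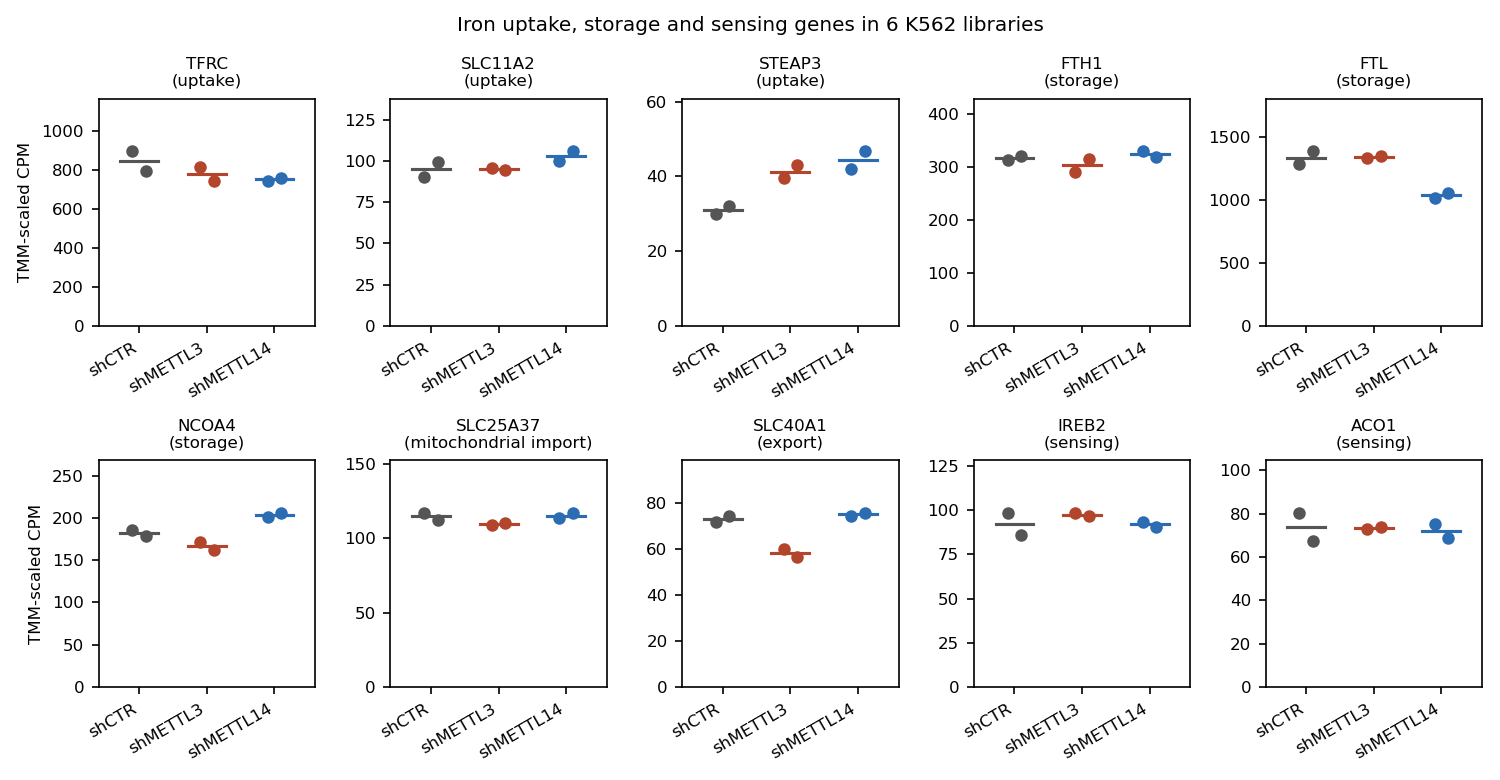
TMM-scaled CPM of each member in each library, with an axis from 0 for every gene, points for the 2 libraries of a group and a bar for their mean. STEAP3 stood above shCTR in all 4 knockdown libraries, FTL was low in both shMETTL14 libraries, and SLC40A1 was low in both shMETTL3 libraries.

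Across the members the changes were few and modest. In shMETTL3 cells 2 of 10 members were called, STEAP3 higher and SLC40A1 lower. Of all genes tested 16.5% were called in that comparison, 8.73% higher and 7.73% lower. In shMETTL14 cells 2 of 10 were called, STEAP3 higher and FTL lower, against 6.69% of all genes, 3.43% higher and 3.26% lower. The median log2 fold change of the members was −0.04 in shMETTL3 and 0.02 in shMETTL14, beside 0.00 over all genes in each. With 10 members, a count of 2 is a small number to set against these shares.

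**Figure D2:**
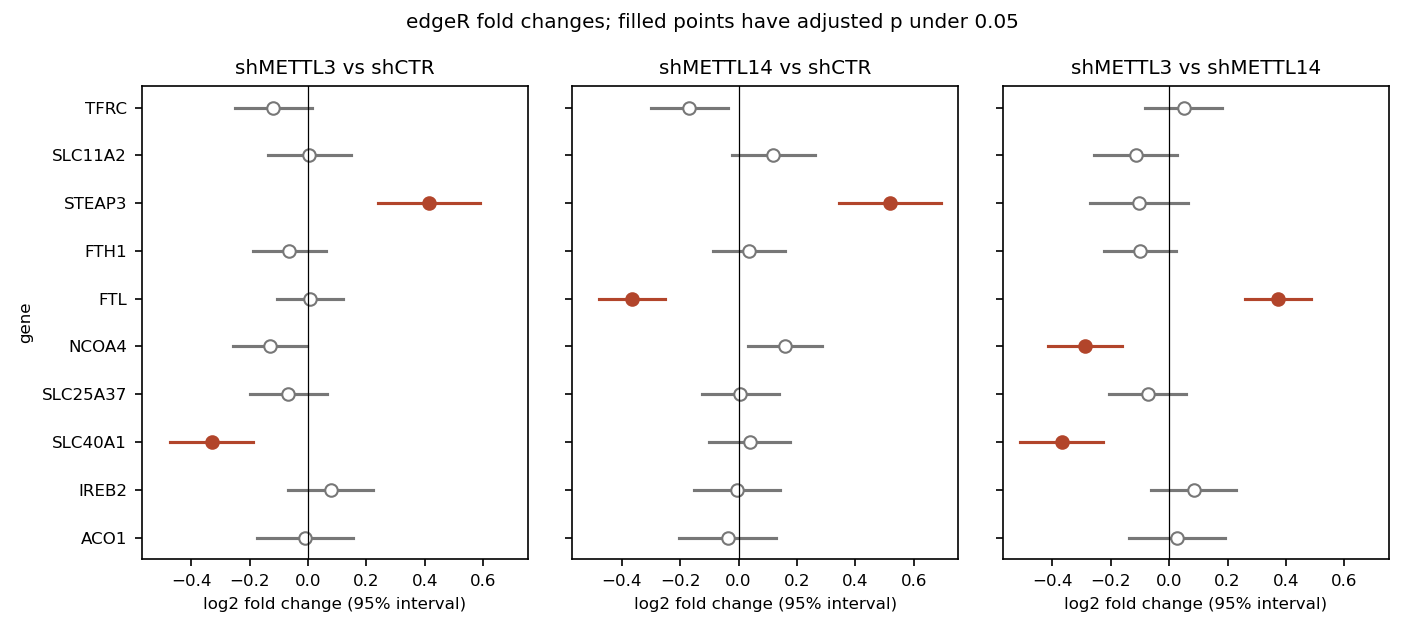
Log2 fold changes of the 10 members with 95% intervals from edgeR, in shMETTL3 against shCTR, shMETTL14 against shCTR and shMETTL3 against shMETTL14, filled where the adjusted p is under 0.05. STEAP3 is filled in both comparisons with shCTR, FTL and SLC40A1 in 1 of these each and in the direct comparison of the knockdowns, and NCOA4 in the direct comparison alone.

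Among the uptake genes, STEAP3 rose in both knockdowns. STEAP3 (ENSG00000115107, chr2:119223831-119265652, plus strand), the endosomal ferrireductase of erythroid cells, was at 30.01 and 31.9 CPM in shCTR, 39.7 and 42.9 CPM in shMETTL3, and 42.0 and 46.7 CPM in shMETTL14. All 4 knockdown libraries lay above both controls, and the knockdowns overlapped each other. The log2 fold change was 0.42 in shMETTL3 (SE 0.0834, 95% interval 0.24 to 0.59, adjusted p = 0.00189), or 1.33-fold, and 0.52 in shMETTL14 (SE 0.0830, 95% interval 0.35 to 0.69, adjusted p = 0.000473), or 1.43-fold. The difference between the knockdowns was −0.10 (95% interval −0.27 to 0.07, adjusted p = 0.472). Without shMETTL3 replicate 2, the rise in shMETTL3 was 0.36 with an adjusted p of 0.0531 and was no longer called, while the rise in shMETTL14 kept its call with each library left out in turn. STEAP3-AS1, on the opposite strand, overlaps 11.0% of the exon bases of STEAP3, and whether the counting used strand is not given in the sources used here. STEAP3-AS1 held between 4 and 11 reads a library, against 593 to 916 for STEAP3. This count does not bound the reads that counting without strand could have left out of both genes.

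TFRC (ENSG00000072274, chr3:196027183-196082189, minus strand), the receptor for transferrin-bound iron, was not called in either knockdown. Its level was 894 and 791 CPM in shCTR, 812 and 739.6 CPM in shMETTL3, and 743 and 756 CPM in shMETTL14. The shCTR libraries stood farther apart than the shMETTL14 libraries, and the lower of them overlapped the shMETTL3 range but not the shMETTL14 range. The log2 fold change was −0.12 in shMETTL3 (95% interval −0.25 to 0.01, adjusted p = 0.214) and −0.17 in shMETTL14 (95% interval −0.30 to −0.04, adjusted p = 0.122). Without shCTR replicate 2 it was called lower in both, at −0.21 (adjusted p = 0.0172) and −0.26 (adjusted p = 0.00877).

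SLC11A2 (ENSG00000110911, chr12:50979401-51028566, minus strand), the transporter of ferrous iron out of the endosome, was at 90.4 and 99.8 CPM in shCTR, 95.7 and 94.9 in shMETTL3, and 100.2 and 106 in shMETTL14. The shMETTL3 libraries lay between the controls, and the shMETTL14 libraries lay just above both. Its log2 fold change was 0.00 in shMETTL3 (95% interval −0.14 to 0.15, adjusted p = 0.977) and 0.12 in shMETTL14 (95% interval −0.02 to 0.26, adjusted p = 0.339). The upper bounds of these intervals are 1.11-fold and 1.20-fold.

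Of the storage genes, the light chain of ferritin fell in shMETTL14, and the heavy chain was not called in any of the 3 comparisons. FTL (ENSG00000087086, chr19:48965301-48966878, plus strand), the chain that favours mineralization of iron in the ferritin core, was at 1284 and 1386 CPM in shCTR, 1334 and 1349.95 CPM in shMETTL3, and 1018 and 1057 CPM in shMETTL14. Both shMETTL14 libraries lay below the other 4, and the shMETTL3 libraries lay between the controls. The log2 fold change in shMETTL14 was −0.36 (SE 0.0543, 95% interval −0.48 to −0.25, adjusted p = 0.000233), which is 0.777 of the shCTR level, and its call was kept with each library left out in turn. In shMETTL3 it was 0.01 (95% interval −0.11 to 0.12, adjusted p = 0.950), and the difference between the knockdowns was 0.37 (SE 0.0543, adjusted p = 9.35e-05). In this direct comparison of shMETTL3 with shMETTL14, 3 of 10 members were called, 1 higher and 2 lower in shMETTL3, beside 12.1% of all genes, 6.65% higher and 5.49% lower in shMETTL3.

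FTH1 (ENSG00000167996, chr11:61959718-61967660, minus strand), the ferroxidase chain, was at 312 and 319.8 CPM in shCTR, 290.3 and 314 in shMETTL3, and 329 and 318 in shMETTL14. The control range overlapped that of each knockdown, and the shMETTL3 libraries lay below the shMETTL14 libraries. Its log2 fold change was −0.06 in shMETTL3 (95% interval −0.19 to 0.06, adjusted p = 0.512) and 0.04 in shMETTL14 (95% interval −0.09 to 0.16, adjusted p = 0.792). Ferritin has many processed pseudogenes that can share reads with it. How reads that match both a gene and a copy were treated is not given in the sources used here. Such reads may have been left out, so the pseudogene counts do not measure how many were shared. The 25 identifiers named as FTH1 pseudogenes held 173 to 226 reads a library in all, or 2.99% to 3.62% of the FTH1 count, and the 16 named for FTL held 34 to 52 reads, or 0.128% to 0.260% of the FTL count. BEST1, on the opposite strand, overlaps 62.4% of the exon bases of FTH1 and held 66 to 151 reads, against 5703 to 6466 for FTH1. If the counting ignored strand, reads in the shared bases could have been left out of both genes. The BEST1 count therefore does not bound what FTH1 may have lost. The level of FTH1 per kb and its ratios to other genes carry this limit.

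The reads of FTL for each read of FTH1 numbered 4.12 and 4.33 in shCTR, 4.60 and 4.30 in shMETTL3, and 3.09 and 3.32 in shMETTL14. This ratio does not depend on the scaling between libraries, and the shMETTL14 libraries lay below all others. For TFRC against FTH1 it was 2.87 and 2.47 in shCTR, 2.80 and 2.35 in shMETTL3, and 2.26 and 2.38 in shMETTL14, so the shMETTL3 range overlapped both other groups. With 2 libraries a group, no permutation test of such a ratio could reach the threshold, and none was run.

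**Figure D3:**
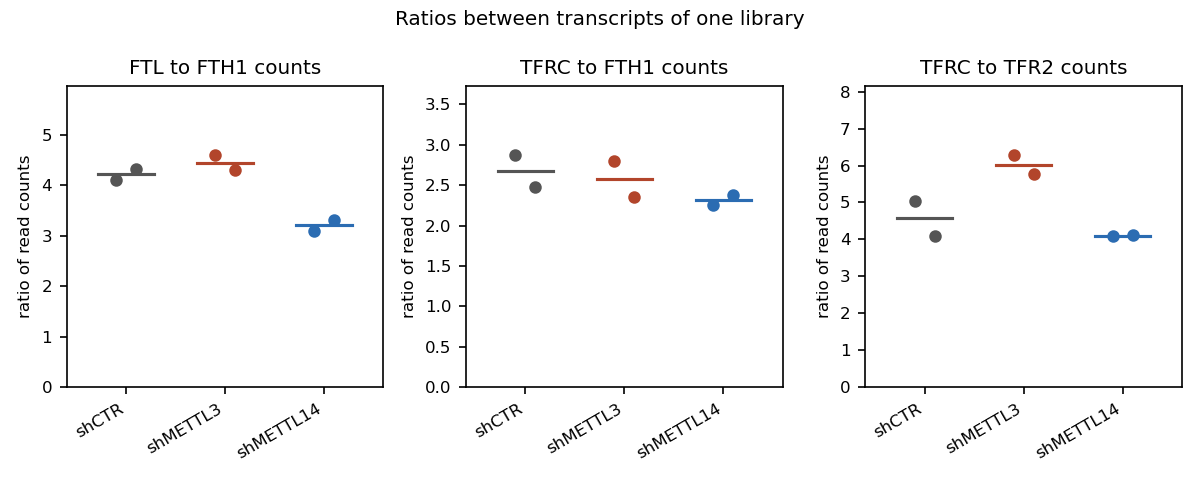
Ratios of read counts between transcripts of the same library (FTL to FTH1, TFRC to FTH1, TFRC to TFR2), with points for libraries, bars for group means and axes from 0. FTL to FTH1 was 3.09 and 3.32 in the shMETTL14 libraries and at least 4.12 in the other libraries, and TFRC to TFR2 was highest in the shMETTL3 libraries, at 6.27 and 5.78.

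NCOA4 (ENSG00000266412, chr10:46005088-46030714, minus strand), the receptor that carries ferritin to the lysosome for release of its iron, differed between the knockdowns. It was at 186 and 179 CPM in shCTR, 171 and 162 CPM in shMETTL3, and 201 and 206 CPM in shMETTL14. The controls lay between the knockdowns with no overlap on either side. Against shCTR it was not called in shMETTL3, at −0.13 (95% interval −0.26 to −0.0024, adjusted p = 0.158), or in shMETTL14, at 0.16 (95% interval 0.03 to 0.29, adjusted p = 0.132). The difference of shMETTL3 from shMETTL14 was −0.29 (SE 0.0608, adjusted p = 0.00306). That call was lost without shMETTL3 replicate 2 (−0.25, adjusted p = 0.1004) and without shMETTL14 replicate 2 (−0.27, adjusted p = 0.0668). With a trend on GC content and transcript length removed, NCOA4 was called higher in shMETTL14 at 0.19 (adjusted p = 0.0147).

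SLC40A1 (ENSG00000138449, chr2:189560579-189583758, minus strand), the exporter ferroportin, fell in shMETTL3. It was at 71.7 and 74.4 CPM in shCTR, 59.96 and 56.3 CPM in shMETTL3, and 74.3 and 75.7 CPM in shMETTL14. Both shMETTL3 libraries lay below the other 4, which overlapped. In shMETTL3 the log2 fold change was −0.33 (SE 0.0678, 95% interval −0.47 to −0.19, adjusted p = 0.00227), or 0.796 of the shCTR level. In shMETTL14 it was 0.04 (95% interval −0.10 to 0.18, adjusted p = 0.802), and the difference between the knockdowns was −0.37 (SE 0.0677, adjusted p = 0.000945). The fall against shCTR was −0.28 without shMETTL3 replicate 2, where it was no longer called (adjusted p = 0.0734), while the difference between the knockdowns kept its call with each library left out in turn.

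SLC25A37, which brings iron across the inner mitochondrial membrane and lies on chromosome 8, was at 117 and 112 CPM in shCTR, 109 and 110.2 in shMETTL3, and 113 and 117 in shMETTL14. All 6 libraries lay between 109 and 117 CPM. Its log2 fold change was −0.07 in shMETTL3 (95% interval −0.20 to 0.06, adjusted p = 0.514) and 0.01 in shMETTL14 (95% interval −0.13 to 0.14, adjusted p = 0.972). Its homologue SLC25A28 (mitoferrin-2) was at 34.2 and 35.7 CPM in shCTR, 27.7 and 30.9 in shMETTL3, and 30.8 and 30.7 in shMETTL14. SLC25A28 fell by 0.25 on the log2 scale in shMETTL3, close to the threshold (adjusted p = 0.0482), and was at −0.18 in shMETTL14 (adjusted p = 0.216). Without any 1 of the 6 libraries that call was lost, with adjusted p-values from 0.0557 to 0.345.

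Neither sensor was called. IREB2 (ENSG00000136381, chr15:78437431-78501456, plus strand) encodes IRP2, which is degraded when iron is plentiful, and was at 98.6 and 86.3 CPM in shCTR, 98.2 and 96.9 in shMETTL3, and 93.5 and 90.6 in shMETTL14. The knockdown libraries all lay between the controls. IREB2 had a log2 fold change of 0.08 in shMETTL3 (95% interval −0.07 to 0.22, adjusted p = 0.497) and −0.01 in shMETTL14 (95% interval −0.15 to 0.14, adjusted p = 0.976). ACO1 (ENSG00000122729, chr9:32384603-32454769, plus strand) encodes IRP1, which is an aconitase when it holds an iron-sulfur cluster, and was at 80.5 and 67.4 CPM in shCTR, 73.1 and 73.8 in shMETTL3, and 75.3 and 68.9 in shMETTL14. Again the controls spanned all knockdown libraries, and the log2 fold change was −0.01 in shMETTL3 (95% interval −0.18 to 0.16, adjusted p = 0.954) and −0.04 in shMETTL14 (95% interval −0.20 to 0.13, adjusted p = 0.848). The lowest count in any library was 1652 for IREB2 and 1290 for ACO1.

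A wider list of 81 other iron genes in 8 roles was set beside the members, and 67 of them were tested. The calls in shMETTL3 numbered 17 (25.4%, beside the 16.5% above), 6 of them higher and 11 lower, a split that turned to 9 higher and 7 lower when the libraries were scaled by their size alone. Those in shMETTL14 numbered 5 (7.46%, beside 6.69%), 4 of them higher and 1 lower, and 11 genes (16.4%, beside 12.1%) differed between the knockdowns. Their median log2 fold change was −0.03 in shMETTL3 and 0.00 in shMETTL14. With each library left out in turn, 5 of the 17 calls in shMETTL3 were kept throughout (ALAS2, ERFE, MCOLN1, TFR2 and PCBP2), and 2 of the 5 in shMETTL14 (ALAS2 and ERFE). The count of calls ran from 7, without either shMETTL3 replicate, to 21 in shMETTL3 and from 2, without shMETTL14 replicate 2, to 9, without shCTR replicate 2, in shMETTL14; it was 3 there without shCTR replicate 1 or shMETTL14 replicate 1. The other 14 genes had too few reads to be tested, among them HMOX1, the inducible heme oxygenase, which had 1 read in all 6 libraries together.

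The largest rises of the list were in erythroid genes of heme synthesis and iron demand. ALAS2 was at 13.9 and 16.1 CPM in shCTR, 52.9 and 49.6 CPM in shMETTL3, and 33.2 and 35.0 CPM in shMETTL14. The 3 groups did not overlap and shMETTL3 was the highest. Against shCTR the log2 fold change was 1.77 in shMETTL3 (SE 0.0917, adjusted p = 3.20e-10), or 3.42-fold, and 1.19 in shMETTL14 (SE 0.0945, adjusted p = 1.51e-07), or 2.27-fold, with a difference of 0.59 between the knockdowns (adjusted p = 6.40e-05). ERFE, the erythroid hormone that lowers hepcidin, was at 12.2 and 12.3 CPM in shCTR, 27.5 and 26.8 in shMETTL3, and 18.6 and 19.8 in shMETTL14. It rose by 1.15 on the log2 scale in shMETTL3 (adjusted p = 1.90e-07) and by 0.65 in shMETTL14 (adjusted p = 0.000429), and the difference of 0.50 was also called (adjusted p = 0.00123).

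Of the 12 tested genes of uptake and endosomal release, 4 (33.3%) were called in shMETTL3, 2 in each direction, beside 16.5% of all genes. In shMETTL14 1 (8.33%) was called, beside 6.69% of all genes. TFR2, the second transferrin receptor, which also signals in erythroid cells, was at 178 and 193 CPM in shCTR, 129.5 and 128 in shMETTL3, and 182 and 184 in shMETTL14. It fell by 0.52 on the log2 scale in shMETTL3 (SE 0.0627, adjusted p = 1.06e-05) and was at −0.02 in shMETTL14 (adjusted p = 0.899), and the difference was −0.51 (adjusted p = 1.38e-05). The reads of TFRC for each read of TFR2 were 5.04 and 4.10 in shCTR, 6.27 and 5.78 in shMETTL3, and 4.09 and 4.12 in shMETTL14.

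MCOLN1, a lysosomal cation channel that can pass iron, was at 9.11 and 10.2 CPM in shCTR, 13.8 and 16.3 in shMETTL3, and 13.7 and 13.5 in shMETTL14. It rose by 0.64 on the log2 scale in shMETTL3 (adjusted p = 0.00139) and by 0.50 in shMETTL14 (adjusted p = 0.0204). The rise in shMETTL14 lost its call without shCTR replicate 1 (adjusted p = 0.115), shMETTL14 replicate 1 (0.175) or shMETTL14 replicate 2 (0.119), and its adjusted p reached 0.0678 under the other settings. TF, transferrin itself, was at 8.65 and 6.32 CPM in shCTR, 10.7 and 11.5 in shMETTL3, and 7.99 and 10.5 in shMETTL14. TF rose by 0.57 on the log2 scale in shMETTL3 (adjusted p = 0.0197), a call lost without shCTR replicate 2 (adjusted p = 0.153), shMETTL3 replicate 1 (0.0671) or shMETTL3 replicate 2 (0.151). SLC39A8 (ZIP8), a transporter of divalent metals, fell by 0.30 in shMETTL3 (adjusted p = 0.00701; 0.106 without shMETTL3 replicate 2) and was at 0.07 in shMETTL14 (adjusted p = 0.660).

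Among the storage chaperones, PCBP2, which hands ferrous iron to ferritin, was at 188 and 194 CPM in shCTR, 149 and 157 CPM in shMETTL3, and 166 and 180.4 CPM in shMETTL14. It fell by 0.32 on the log2 scale in shMETTL3 (SE 0.0634, adjusted p = 0.00171) and was at −0.14 in shMETTL14 (adjusted p = 0.206). Of the 9 tested genes of mitochondrial import and export, 3 were called in shMETTL3, all lower. Of all genes 16.5% were called there, 7.73% lower. These calls were each lost when 1 library or another was left out. In shMETTL14 0 of the 9 were called, beside 6.69% of all genes. There edgeR gave 5 of the 9 an unadjusted p under 0.05, as it did 20.7% of all genes. None of the 7 genes of IRP control and TFRC mRNA decay was called against shCTR by edgeR, although 4 had an unadjusted p under 0.05 in shMETTL3, beside 29.9% of all genes, and 1 in shMETTL14, beside 20.7%. FBXL5, the iron-sensing ubiquitin ligase subunit that marks IRP2 for degradation, was at −0.11 in shMETTL3 (95% interval −0.27 to 0.04, adjusted p = 0.320) and −0.03 in shMETTL14 (adjusted p = 0.871).

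Of the 22 tested genes of Fe-S cluster assembly, 4 (18.2%) were called in shMETTL3, 2 in each direction, beside 16.5% of all genes. In shMETTL14 2 (9.09%) were called, 1 in each direction, beside 6.69% of all genes. IBA57, a late factor of mitochondrial cluster assembly, rose by 0.36 on the log2 scale in shMETTL3 (adjusted p = 0.0120), a call lost without shCTR replicate 1 (0.0556) or shMETTL3 replicate 2 (0.182) and at up to 0.0786 under the other settings. GLRX5, the glutaredoxin that passes clusters on, was at 192 and 203 CPM in shCTR, 222 and 223 in shMETTL3, and 236 and 241 in shMETTL14. It rose by 0.18 in shMETTL3, close to the threshold (adjusted p = 0.0485), a call lost without any 1 of the libraries other than shCTR replicate 2 (adjusted p from 0.0862 to 0.237), and by 0.28 in shMETTL14 (adjusted p = 0.00697; 0.0782 without shMETTL14 replicate 1 and 0.102 without shMETTL14 replicate 2). HSPA9, the chaperone mortalin, fell by 0.24 in shMETTL14 (adjusted p = 0.0140; 0.0643 without shCTR replicate 1 and 0.180 without shMETTL14 replicate 2).

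**Figure D4:**
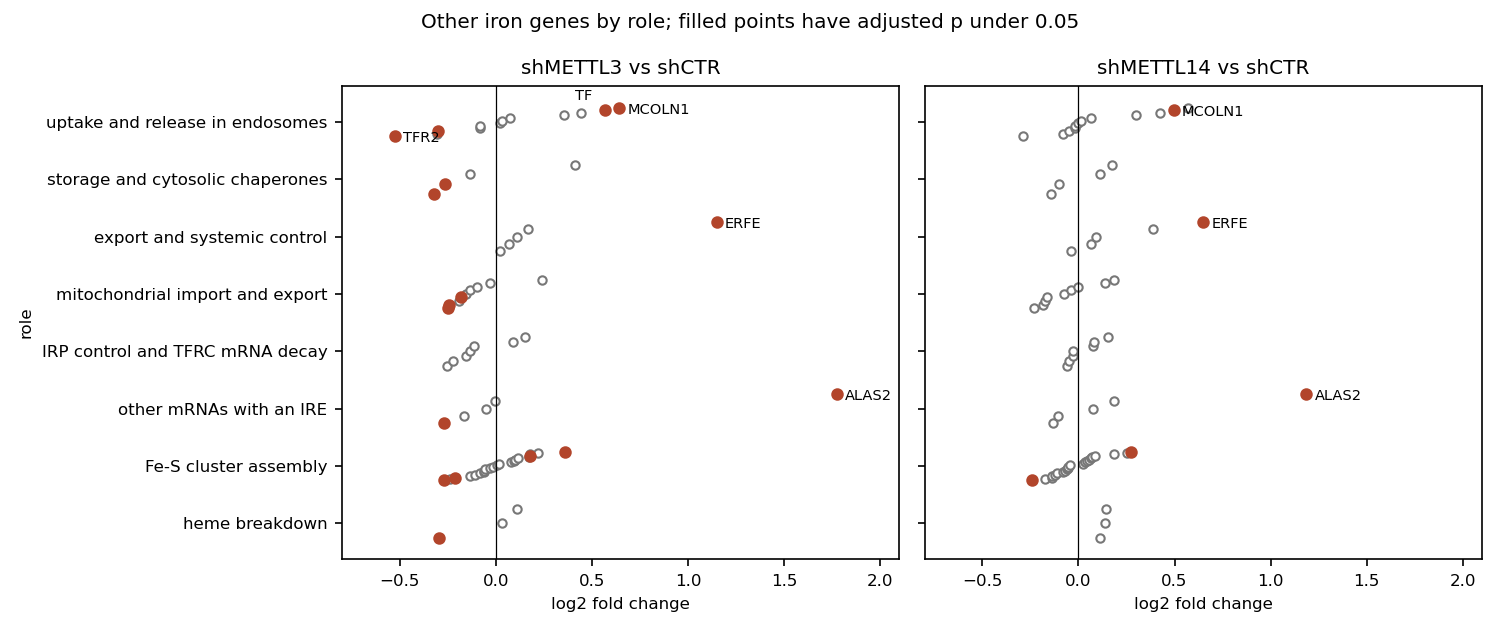
Log2 fold changes of the 67 tested genes of the wider iron list by role, in shMETTL3 (left) and shMETTL14 (right) against shCTR, filled where the adjusted p from edgeR is under 0.05. ALAS2 (1.77 and 1.19) and ERFE (1.15 and 0.65) stand to the right in both panels, and TFR2 (−0.52) is the lowest called gene in shMETTL3.

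The erythroid markers of the line moved with these changes. Their 9 genes summed to 865 to 959 CPM in shCTR, 1122 to 1200.0 CPM in shMETTL3 and 1019.9 to 1026 CPM in shMETTL14, with none at 0. HBE1 (0.96 and 0.41 on the log2 scale in shMETTL3 and shMETTL14), KLF1 (0.36 and 0.27) and EPOR (0.36 and 0.40) were called higher in both knockdowns, while HBZ was called higher (1.02) in shMETTL3. Of the 5 monocyte markers, LYZ carried the sum, at 42.0 and 43.9 CPM in shCTR, 16.5 and 15.4 in shMETTL3, and 59.9 and 64.9 in shMETTL14, while CD14 and CSF1R never passed 3 reads. The megakaryocyte markers summed to 11.5 to 13.3 CPM in shCTR, 20.2 to 22.5 in shMETTL3 and 10.8 to 11.3 in shMETTL14, nearly all from ITGA2B, with GP9 and PF4 at 0 in every library. The lymphocyte markers summed to 5.87 to 6.27, 8.81 to 9.47 and 6.46 to 7.14 CPM in the same order, and the stromal or epithelial markers, mostly EPCAM, to 56.6 to 57.8, 42.2 to 42.9 and 44.3 to 45.3 CPM. The part of these marker changes in the changes of the iron genes was not tested, and in bulk RNA fewer cells of a state and less RNA per cell cannot be told apart.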

How the data were processed

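Poly(A) RNA was selected with oligo(dT) beads, and the authors deposited raw counts of reads per gene for 61661 identifiers, 60675 of them Ensembl genes. The submitters' processing notes name HTSeq 0.6.1 and hg38; the aligner, annotation and strand setting are not given in the sources used here. Identifiers without an annotated gene held 0.635% to 0.703% of a library and stayed in the library totals. Groups and replicate numbers were taken from the labels. In R 4.3.3, edgeR 4.0.16 (filterByExpr, minimum count 10, TMM, quasi-likelihood test, all 3 groups in 1 fit, Benjamini-Hochberg) tested 17686 genes, with 95% intervals. DESeq2 1.42.0, other scalings, no filter, pairwise fits, a replicate block, a GC and length trend (mgcv 1.9.3), added pseudogene reads and each library left out were the alternatives. The steps were tested on simulated data. Replicates differed by more than counting noise (mean chi-square per gene 2.55 to 5.30), so no libraries were merged as duplicates. Positions, lengths, exons and UTRs are those of GENCODE release 29 on GRCh38. The members and lists were chosen with earlier results of these data known. All members are named. From the wider list, called genes were named if the compared groups did not overlap and each of their libraries had 10 or more reads, at most the 8 largest changes per comparison, plus FBXL5, ALAS2, TFR2, SLC25A28 and HMOX1. Part of the genes fixed for naming is not reported here.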

Additional observations from a re-analysis of the deposited data

Results flagged for a closer look

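The knockdowns differed from each other in 3 members by edgeR's test of the difference itself, given here as shMETTL3 minus shMETTL14 on the log2 scale. FTL differed by 0.37, SLC40A1 by −0.37 and NCOA4 by −0.29. FTL was at 1334 and 1349.95 CPM against 1018 and 1057 CPM, and SLC40A1 at 59.96 and 56.3 CPM against 74.3 and 75.7 CPM, so each differed from shCTR in a different knockdown.

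Among the other iron genes the difference was 0.59 for ALAS2, 0.50 for ERFE, −0.51 for TFR2 and −0.37 for SLC39A8 (51.8 and 50.2 against 65.1 and 66.4 CPM). EPAS1 is a hypoxia-inducible factor listed here among mRNAs with an IRE, though the hairpin search above found none in its UTRs. It differed by −0.45, with 32.8 and 31.8 CPM in shMETTL3 and 44.8 and 43.9 CPM in shMETTL14 (adjusted p = 0.000451). BLVRA, a biliverdin reductase of heme breakdown, differed by −0.44 (56.4 and 59.1 against 76.5 and 79.6 CPM, adjusted p = 0.000155). HSPA9 differed by 0.34 (846 and 815 against 680.1 and 636 CPM, adjusted p = 0.000490). TMEM14C, a carrier of porphyrin intermediates in mitochondria, differed by −0.24 (adjusted p = 0.0104), a call lost without shMETTL3 replicate 1 (adjusted p = 0.126), shMETTL3 replicate 2 (0.0967) or shMETTL14 replicate 2 (0.181).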

How the results depend on the processing

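Over 420 member values under alternatives, 395 kept their direction and side of the threshold, 4 lost a call, 4 gained one and 17 changed sign, 0 of them in a called member. ACO1 in shMETTL3 became 0.0453 with library size alone. SLC25A37 in shMETTL14 became −0.00053 with the GC and length trend removed, and IREB2 in shMETTL14 became 0.0197 with library size alone and 0.0355 with that trend removed. With each library left out, values that changed sign ran from −0.0495 to 0.0606 (FTL), −0.0685 to 0.0738 (SLC11A2), −0.0182 to 0.17 (IREB2) and −0.14 to 0.12 (ACO1) in shMETTL3, from −0.0264 to 0.0374 (SLC25A37), −0.10 to 0.0935 (IREB2) and −0.16 to 0.0976 (ACO1) in shMETTL14, and from −0.0171 to 0.12 (TFRC) and −0.0350 to 0.0901 (ACO1) between the knockdowns. The members called ran from 0, without shMETTL3 replicate 2, to 3 in shMETTL3, and, with each library left out, the wider list from 7 to 21 in shMETTL3, 2 to 9 in shMETTL14 and 7 (without shMETTL3 replicate 1 or 2 or shMETTL14 replicate 2) to 14 between the knockdowns. With the GC and length trend removed it had 23, 7 and 14 calls, and with library size alone 16 (9 higher and 7 lower), 5 and 10. The cause was not tested.

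DESeq2 called 1881, 763 and 1327 genes where edgeR called 2912, 1184 and 2148 (shMETTL3, shMETTL14 and their difference), and 766 genes were called in shMETTL14 with no filter. Without shMETTL3 replicate 1 or 2, 1503 or 1102 genes were called in shMETTL3 and 1123 or 968 between the knockdowns. Without shMETTL14 replicate 1 or 2, 341 or 397 were called in shMETTL14 and 942 or 987 between the knockdowns, and without shCTR replicate 2, 1913 in shMETTL14. Library size alone moved the median of all genes by 0.06 in shMETTL3 and changed the calls from 1544 higher and 1368 lower to 2158 and 858 there, from 607 and 577 to 743 and 443 in shMETTL14, and from 1177 and 971 to 1399 and 754 between the knockdowns. The replicate numbers were not shown to pair the libraries, with correlations of the replicate differences of 0.27, −0.06 and −0.03 over 9961 genes. With a replicate block, 3264, 1459 and 2478 genes were called, and TFRC in shMETTL14 was called at −0.17 (adjusted p = 0.0459); no other member changed its call under the block.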
